A study of Mus musculus with 8 samples.

Results

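The genes described here encode plasma cell surface and survival receptors, and they were read in plasmablasts with and without Jagn1, a gene for a membrane protein of the endoplasmic reticulum. The 10 genes were taken from a list of names that was chosen with earlier results of these data known. They are the BAFF and APRIL receptors Tnfrsf17 (BCMA), Tnfrsf13b (TACI) and Tnfrsf13c (BAFF receptor), the CD138 gene Sdc1, and Slamf7, Cd93, Cd28, Cd9, Cd38 and Lag3. All 10 were among the 24413 gene symbols of each library. The knockout group (4 libraries) came from Jagn1 fl/fl mice with Mb1-Cre, a recombinase made from the B cell gene Cd79a, and the control group (4 libraries) from Jagn1 fl/fl mice with no Cre listed. All mice were of the C57BL/6J strain. In both groups, B220+ spleen B cells were stimulated with 25 µg/ml lipopolysaccharide (LPS) for 4 days and sorted as CD22-CD138+ plasmablasts, the dividing cells that have begun to secrete antibody. The loss of Jagn1 and the presence of Cre cannot be told apart in this design. The series names 4 mice per genotype, and nothing further ties a library to its own mouse or culture, so p-values measure the spread between these libraries.

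BAFF and APRIL are cytokines of the tumour necrosis factor family that keep B lineage cells alive. BAFF receptor binds BAFF alone and serves mature B cells, TACI binds both cytokines, and BCMA, which favours APRIL, supports long-lived plasma cells in bone marrow. CD138 is a heparan sulfate proteoglycan that appears on the cell surface as B cells become plasma cells and can hold APRIL through its sugar chains. SLAMF7, CD93 and CD28 are further receptors of plasma cells. Levels are given as CPM, tag counts divided by each library's total over the genes that passed the count filter (with TMM factors). This puts the libraries on one common scale. Because the kit reads 1 tag near the 3′ end of a transcript, counts were not divided by gene length, and levels of different genes are on this per-tag scale.

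The libraries held 5882912 to 10066661 counts, so that the floor of 3 counts stood at 0.298 to 0.510 CPM. This floor was taken on those full totals, without TMM factors. Jagn1 lay at 2.23 to 9.64 CPM in control libraries and had 1 or 2 counts, at most 0.269 CPM, in knockout libraries, on the side that each label gives. Cd79a, the gene that carries Cre, fell from 304 ± 77.6 to 148 ± 23.5 CPM (SD, n = 4 each, edgeR adjusted p = 0.00313), and its part in the other results was not tested. Control replicates 1 and 4 deviated most from their group's mean over all genes (root mean square log2 deviation 0.594 and 0.581, with 0.324 to 0.432 for the others), and for some results values without both are given. All 10 genes of a plasmablast marker list were present at levels that could be tested, with a sum of 26989 to 34305 CPM (control) and 21476 to 27474 CPM (knockout), most of it from Mzb1, an ER cofactor of antibody assembly. Of these 10, 3 were called lower by edgeR, against 3.19% of all genes tested: Jchain and the receptor genes Sdc1 and Tnfrsf17. Cd22, the marker sorted against, stood at 6.83 ± 3.42 CPM (control) and 6.77 ± 2.06 CPM (knockout; SD, n = 4 each). Of 8 natural killer cell markers 4 were at 0 in all libraries, as were 6 of 11 myeloid markers, among them Lyz2, S100a8 and S100a9, and 5 of 8 erythroid and platelet markers.

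Upstream sequences are shown for 4 of the genes that fell in the knockout, so that the letters stand beside the values. RefSeq entries (GRCm38.p6) matched 7 of the 10 genes, and Cd93, which also fell, had none. Each run gives bases before the RefSeq start, 5′ to 3′ on the gene's own strand, and ends at that start, or earlier where an exon annotated in GENCODE M21 begins, which left out 73 of 250 bases for Sdc1 and 8 for Slamf7. The Slamf7 window lies inside the annotated span of that gene. Capitals mark matches, on either strand, to 1 of 8 searched motifs.
Tnfrsf17, chr16:11313559-11313808, plus strand: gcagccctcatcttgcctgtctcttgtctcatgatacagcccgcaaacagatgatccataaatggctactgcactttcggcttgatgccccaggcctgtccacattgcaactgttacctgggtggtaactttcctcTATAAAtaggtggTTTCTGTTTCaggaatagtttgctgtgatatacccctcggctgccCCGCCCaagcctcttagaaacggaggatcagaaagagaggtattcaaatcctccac
Tnfrsf13c, chr15:82224381-82224630, minus strand: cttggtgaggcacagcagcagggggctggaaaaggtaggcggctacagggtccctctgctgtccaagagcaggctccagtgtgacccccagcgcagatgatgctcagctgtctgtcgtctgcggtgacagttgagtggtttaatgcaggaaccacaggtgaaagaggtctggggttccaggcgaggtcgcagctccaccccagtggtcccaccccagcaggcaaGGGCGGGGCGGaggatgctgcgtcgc
Sdc1, chr12:8771146-8771322, plus strand: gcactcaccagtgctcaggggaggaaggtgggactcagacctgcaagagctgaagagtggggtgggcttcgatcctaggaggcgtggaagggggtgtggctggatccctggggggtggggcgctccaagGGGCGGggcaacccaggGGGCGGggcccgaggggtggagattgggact
Slamf7, chr1:171649008-171649249, minus strand: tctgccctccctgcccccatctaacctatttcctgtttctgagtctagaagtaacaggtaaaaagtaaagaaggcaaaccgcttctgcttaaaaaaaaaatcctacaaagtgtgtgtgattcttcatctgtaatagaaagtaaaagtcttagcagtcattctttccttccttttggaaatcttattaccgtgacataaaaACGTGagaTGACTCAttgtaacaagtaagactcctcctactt

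No motif searched was found in all 4 windows. Tnfrsf17 held a match to the interferon regulatory factor pattern (GAAA and GAAA with 2 bases between), 101 to 92 bases before the start, which 2.98% of 32851 RefSeq windows of 250 bases hold, and a TATA box match (TATAAA, 12.4% of windows) at 114 to 109 bases. Slamf7 held the AP-1 pattern TGANTCA (6.75% of windows) at 42 to 36 bases and the pattern CACGT (16.6%), the core bound by unfolded protein response factors. GC boxes (GGGCGG, 32.7% of windows) lay in the windows of Tnfrsf17, Tnfrsf13c (2 that overlap) and Sdc1. No match to the PRDM1 pattern AGNGAAAG (7.3% of windows), the ATF4 pattern TGATGNAA (3.45%) or the sterol element TCACNCCAC (1.05%) was found in these 4 windows. Among genes that were not called, the window of Cd9 held a PRDM1 match (AGGGAAAG), and that of Tnfrsf13b held none of the motifs searched. The matches describe letters only.

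In the knockout, 5 of the 9 receptor genes that could be tested were lower and 0 were higher (edgeR adjusted p under 0.05 over 9904 genes; 0 higher also at an unadjusted p under 0.05, with DESeq2 and with limma-voom). Tnfrsf17, Cd93, Sdc1, Slamf7 and Tnfrsf13c fell, Tnfrsf13b, Cd28, Cd9 and Cd38 did not pass the threshold, and Lag3 had too few counts for a test. Over all genes tested, 5.74% were called, 3.19% lower and 2.54% higher. In each of the 5 called genes all 4 knockout libraries lay below all 4 control libraries, an arrangement found in 6.64% of all genes tested, and in no receptor gene did all knockout libraries lie above all control libraries, against 6.45% of genes. The median log2 fold change of the 9 genes was -0.58, against -0.01 over all genes. These genes, and the lists of related genes, were chosen with earlier results of these data known. Their contrasts with all genes therefore describe them and are not a test. In these bulk samples fewer cells carrying a transcript and less of it per cell cannot be told apart. The count of lower genes was 5 without control replicates 1 and 4 and 3 without knockout replicate 2.

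**Figure D1:**
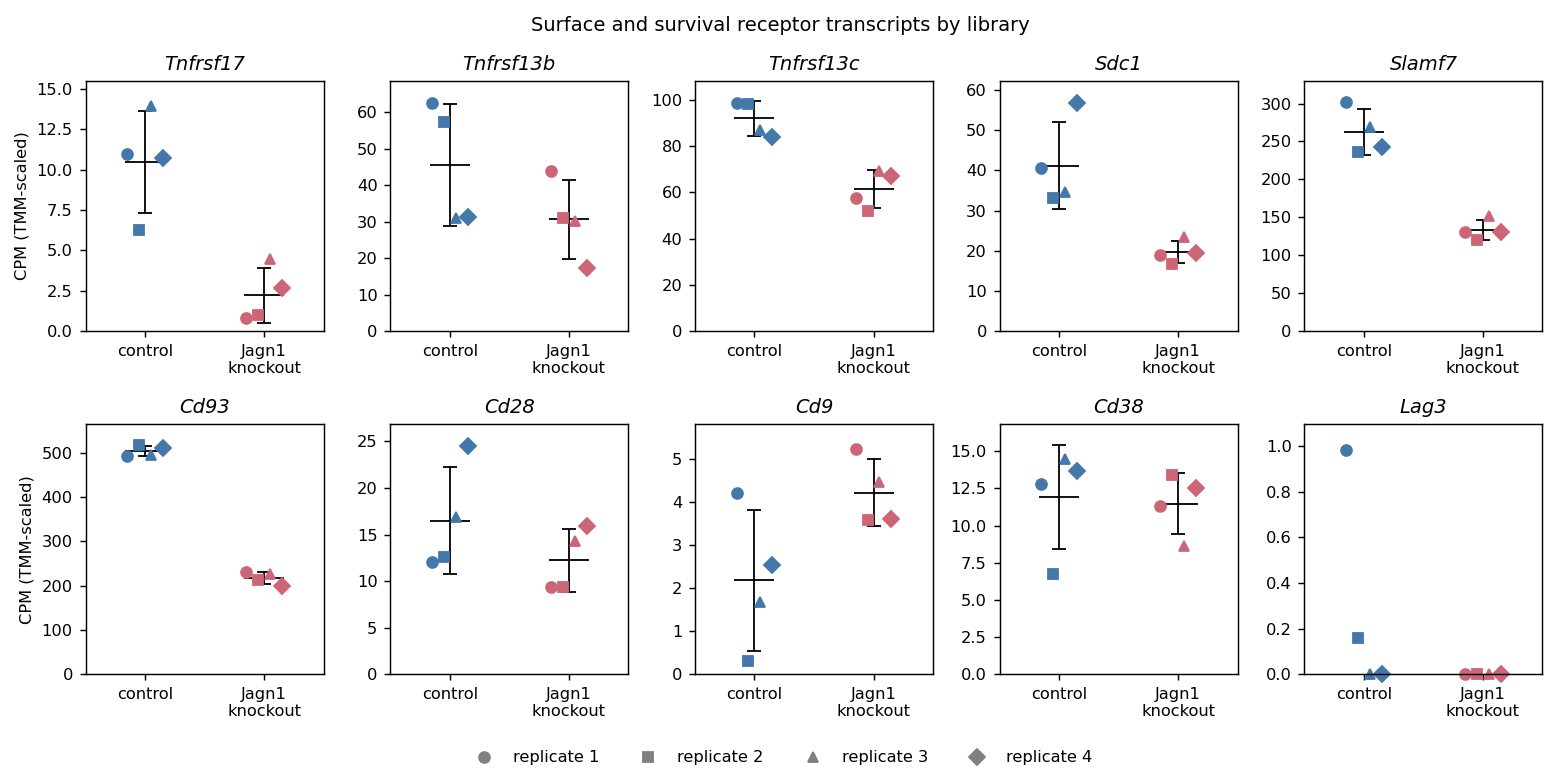
Level of each of the 10 receptor genes in CPM (vertical axes, each from 0) in the 4 control and 4 Jagn1 knockout libraries, with marker shapes for replicate numbers, and the mean and SD as a bar except for Lag3. The groups are separate for Tnfrsf17, Tnfrsf13c, Sdc1, Slamf7 and Cd93 and overlap for the other 5 genes.

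Tnfrsf17, the BCMA gene, had the largest fold difference of the 9 tested. It lies on chromosome 16 from 11313812 to 11320074 (GRCm38, plus strand, 3 exons). Its level was 11.0, 6.28, 13.9 and 10.7 CPM in control replicates 1 to 4 and 0.806, 1.01, 4.46 and 2.65 CPM in knockout replicates 1 to 4. The highest knockout library was thus below the lowest control library, and knockout replicates 1 and 2 rested on 6 and 7 counts. Its log2 fold change was -2.22 ± 0.48 (SE, 95% interval -3.23 to -1.20), with an edgeR adjusted p of 0.0105. Only 0.162% of the genes tested had a lower fitted fold change. The call was lost without knockout replicate 2 (log2 fold change -1.98, edgeR adjusted p = 0.0517).

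Tnfrsf13c, the BAFF receptor gene, lies on chromosome 15 from 82221743 to 82224369 (minus strand, 3 exons). Its level was 98.8, 98.1, 86.8 and 83.8 CPM in control replicates 1 to 4 and 57.7, 51.9, 69.3 and 66.9 CPM in knockout replicates 1 to 4. The spread within each group was small, with a coefficient of variation of 8.36% in the control and 13.1% in the knockout, and the groups were separate. Fitted over all genes, the log2 fold change was -0.58 ± 0.15 (SE), a ratio of 0.669, with an edgeR adjusted p of 0.0368. This call was the least firm of the 5. It was lost without control replicate 2 (edgeR adjusted p = 0.105) or 3 (0.0782) and without knockout replicate 1 (0.118), 2 (0.169), 3 (0.0670) or 4 (0.0609), while the fold change stayed between -0.64 and -0.50.

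Tnfrsf13b, the TACI gene on chromosome 11 (61126755 to 61149372, plus strand), did not pass. It stood at 62.4, 57.4, 31.1 and 31.2 CPM in control replicates 1 to 4 and at 43.9, 31.1, 30.3 and 17.2 CPM in knockout replicates 1 to 4. Control replicates 1 and 2 stood above the other control libraries, and 1 knockout library lay inside the control range. The fitted log2 fold change was -0.57 ± 0.29 (SE), as large as that of Tnfrsf13c, but its interval of -1.18 to 0.04 included 0 (edgeR adjusted p = 0.319).

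The balance between the 3 receptors was read as ratios of counts within each library, which no scaling between libraries can move. Tnfrsf17 made up 7.34 ± 2.87% of the counts of the 3 receptors in the control and 2.33 ± 1.64% in the knockout, Tnfrsf13b 30.0 ± 6.76% and 32.2 ± 9.98%, and Tnfrsf13c 62.6 ± 4.41% and 65.5 ± 8.82% (SD, n = 4 each). The log2 ratio of Tnfrsf17 to Tnfrsf13c ran from -3.95 to -2.63 in the control and from -6.05 to -3.94 in the knockout, a difference of group means of -1.87. The groups met at their edges: knockout replicate 3 was level with control replicate 2. In an exact two-sided permutation test this difference had p = 0.0571, and 0.171 after Benjamini-Hochberg adjustment over the 3 pairs, with 0.0286 the smallest p the design allows. The log2 ratio of Tnfrsf17 to Tnfrsf13b differed by -1.89 (exact permutation p = 0.114, adjusted 0.171). That of Tnfrsf13b to Tnfrsf13c differed by 0.02 (exact permutation p = 0.971, adjusted 0.971), with group means of -1.09 ± 0.43 and -1.07 ± 0.67 (SD, n = 4 each). With 4 libraries a group, a fall of Tnfrsf17 beyond that of the other 2 receptors did not pass.

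**Figure D2:**
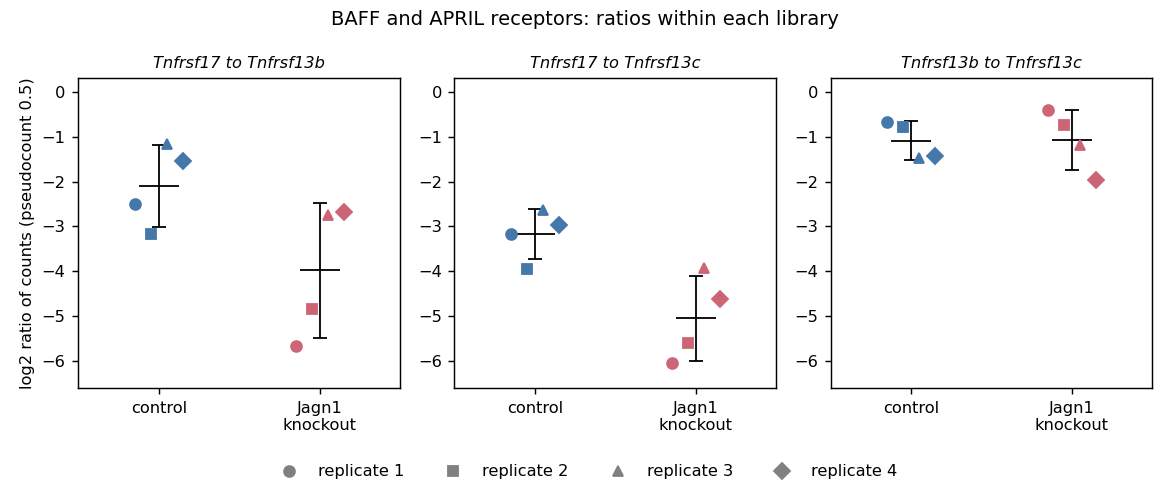
Log2 ratio of counts (pseudocount 0.5) for each pair of BAFF and APRIL receptor genes in the 4 control and 4 Jagn1 knockout libraries, with marker shapes for replicate numbers and the mean and SD as a bar. Both ratios with Tnfrsf17 are lower on average in the knockout, by 1.89 and 1.87 on the log2 scale, with groups that overlap, and the third pair has nearly equal means.

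Sdc1, whose protein CD138 was the marker the cells were sorted for, lies on chromosome 12 from 8771323 to 8793715 (plus strand, 7 exons). Its level was 40.5, 33.0, 34.5 and 56.7 CPM in control replicates 1 to 4 and 18.9, 16.8, 23.3 and 19.5 CPM in knockout replicates 1 to 4. Control replicate 4 was the highest, and the lowest control library was still above every knockout library. The log2 fold change was -1.07 ± 0.21 (SE), a ratio of 0.476, with an edgeR adjusted p of 0.00635. Leaving out control replicate 4 gave -0.88, and leaving out both control replicates 1 and 4 gave -0.78 (edgeR adjusted p = 0.0191), and the call held under all 18 alternatives.

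Slamf7 encodes a self-binding receptor of the SLAM family that is abundant on plasma cells, and lies on chromosome 1 from 171632403 to 171653035 (minus strand, 8 exons). It stood at 302, 236, 269 and 243 CPM in control replicates 1 to 4. The knockout libraries gave 131, 120, 152 and 131 CPM, about the same level in each and below every control library. This came to a log2 fold change of -0.98 ± 0.14 (SE, edgeR adjusted p = 0.000553), between -1.04 and -0.90 over the 18 alternatives. Its exons share 423 bases with Gm37787, an antisense gene, and since no source used here gives the strandedness of the counting, reads of the 2 genes cannot be told apart there.

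Cd93 encodes a C-type lectin-like transmembrane receptor that plasma cells need to persist in bone marrow. It lies on chromosome 2 from 148436640 to 148443563 (minus strand, 2 exons). It was the most abundant of the 10 genes and the steadiest in the control, with 492, 516, 495 and 510 CPM in control replicates 1 to 4 (coefficient of variation 2.34%). The knockout libraries gave 231, 214, 227 and 199 CPM. Every knockout library was below every control library, and the gap between the groups exceeded the spread within each. The difference on the log2 scale was -1.21 ± 0.13 (SE), a ratio of 0.433, with an edgeR adjusted p of 4.35e-05, which ranked Cd93 at 14 of the 9904 genes by p. The estimate stayed between -1.24 and -1.17 under all 18 alternatives.

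**Figure D3:**
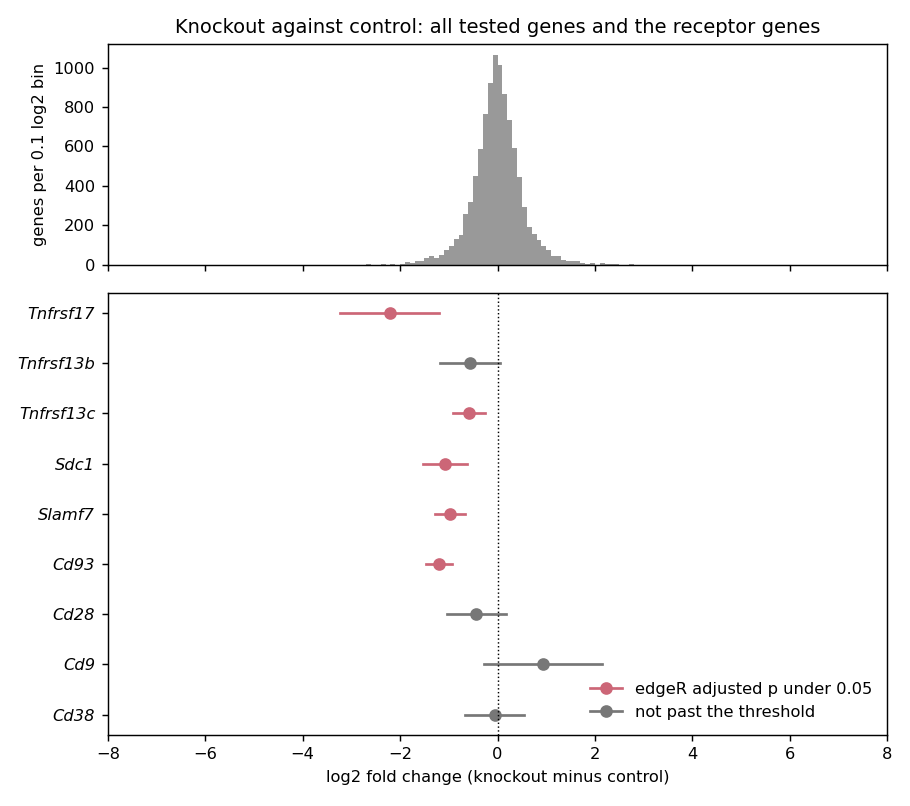
Top, number of genes per bin of 0.1 in log2 fold change (knockout minus control) over the 9904 genes tested. Bottom, fitted log2 fold change and 95% interval of the 9 receptor genes tested, with called genes in red: intervals of Tnfrsf17, Tnfrsf13c, Sdc1, Slamf7 and Cd93 lie below 0, and those of Tnfrsf13b, Cd28, Cd9 and Cd38 include 0.

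Cd28, a costimulatory receptor that T cells share with plasma cells, had 12.1, 12.6, 16.9 and 24.5 CPM in control replicates 1 to 4 and 9.40, 9.35, 14.3 and 15.9 CPM in knockout replicates 1 to 4. The groups overlapped, with replicates 3 and 4 above replicates 1 and 2 in both. A log2 fold change of -0.44 ± 0.29 (SE, 95% interval -1.04 to 0.17) did not pass (edgeR adjusted p = 0.467). Markers of T cells were present at low levels: none of 12 was at 0 throughout, and their sum was 33.9 to 46.6 CPM (control) and 19.4 to 33.8 CPM (knockout). The lowest control sum thus lay just above the highest knockout sum. Of the 7 that were tested 0 were called by edgeR, DESeq2 or limma-voom, against 5.74% of all genes by edgeR. Their median log2 fold change was -0.54. An unadjusted p under 0.05, where no share over all genes was taken, was found for 0 of them. Cd4, the lowest of the 12, stayed below the count floor, at 0.105 ± 0.133 CPM (SD, n = 4) in control libraries and 0 counts in knockout libraries. Cd2, the highest, stood at 9.15 ± 1.16 CPM (control) and 6.30 ± 2.41 CPM (knockout; SD, n = 4 each). The part of these cells in the Cd28 level was not tested.

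Cd38, which encodes an ectoenzyme that consumes NAD, was at 12.8, 6.77, 14.5 and 13.6 CPM in control replicates 1 to 4 and at 11.3, 13.4, 8.66 and 12.5 CPM in knockout replicates 1 to 4. The libraries of both groups were interleaved. Its log2 fold change was -0.06 ± 0.28 (SE), and the 95% interval ran from -0.66 to 0.53 (edgeR adjusted p = 0.944). Cd9, a tetraspanin gene, was the only tested receptor gene with a positive fitted change. It gave 4.21, 0.322, 1.67 and 2.53 CPM in control replicates 1 to 4 and 5.24, 3.59, 4.46 and 3.61 CPM in knockout replicates 1 to 4, and control replicate 2 rested on 2 counts. Control replicate 1 lay inside the knockout range. Its fitted change was 0.93 ± 0.57 on the log2 scale (SE, 95% interval -0.27 to 2.14, edgeR adjusted p = 0.428). This became 0.59 when control replicate 2 was left out and 2.03 when control replicates 1 and 4 were (edgeR adjusted p = 0.0565). Exons of Cd9 share 218 bases with Gm26728 on the opposite strand. Lag3, an inhibitory receptor gene known from T cells and from regulatory plasma cells, gave 7 counts in control replicate 1, 1 count in control replicate 2 and 0 in the other 6 libraries. In the knockout, 0 counts allow up to 0.363 to 0.419 CPM per library, so a difference was not detectable at this depth.

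The order of the levels was almost the same in both groups. In the control, Cd93 stood highest at 503 ± 11.8 CPM, followed by Slamf7 at 263 ± 29.9 CPM and Tnfrsf13c at 91.9 ± 7.68 CPM, with no overlap between these neighbours. Tnfrsf13b (45.5 ± 16.7 CPM) and Sdc1 (41.2 ± 10.8 CPM) did not differ beyond their spread, and neither did Cd28 (16.5 ± 5.77 CPM), Cd38 (11.9 ± 3.50 CPM) and Tnfrsf17 (10.5 ± 3.15 CPM). Cd9 (2.18 ± 1.63 CPM) and Lag3 came last. In the knockout the first 7 places were held by the same genes in the same order, and Tnfrsf17 (2.23 ± 1.70 CPM) lay below Cd9 (4.22 ± 0.787 CPM) with ranges that overlapped (SD, n = 4 for each mean).

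For each called receptor gene the 2 genes with the nearest profile were taken from 7967 genes, by the root mean square difference of centred log2 CPM over the 8 libraries. Slamf7 lay nearest to Sdf2l1, an ER chaperone cofactor gene (0.08), and Hsd17b12 (0.10). Cd93 lay nearest to Hivep2 (0.13) and Tecr (0.13). Sdc1 was nearest to Ddx26b (0.16) and H2-Ob (0.16), and Tnfrsf13c to Ccdc82 (0.09) and Fam193b (0.11). For Tnfrsf17, Kcnn4, a potassium channel gene, and Stard4, a sterol carrier gene, came nearest at 0.51 and 0.57. These distances grow with a gene's own spread over the libraries, which was 1.44 (SD of log2 CPM) for Tnfrsf17 and 0.35 to 0.65 for the other 4.

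The signalling partners of the BAFF and APRIL receptors were read from a list of 23 genes, of which 21 were tested. In the knockout 4 were higher and 0 lower by edgeR, against 2.54% and 3.19% of all genes, with a median log2 fold change of 0.13. DESeq2 gave 3 and 0 and limma-voom 4 and 0. Over all 9904 genes DESeq2 called 369 higher and 486 lower, and limma-voom 471 and 583. At an unadjusted p under 0.05, where no share over all genes was taken, there were 5 higher and 1 lower. The ligand genes themselves were near absent: Tnfsf13 (APRIL) had 0 counts in all 8 libraries, and Tnfsf13b (BAFF) had 2 counts in control replicate 2, 1 in knockout replicate 3 and 0 elsewhere. Relb, a subunit of the noncanonical NF-kB pathway that BAFF receptor drives, rose from 44.6 ± 2.41 to 68.6 ± 5.16 CPM (log2 fold change 0.62 ± 0.15, edgeR adjusted p = 0.0221). Bcl2, which encodes a survival protein, rose from 43.6 ± 14.7 to 80.6 ± 5.33 CPM (0.89 ± 0.22, edgeR adjusted p = 0.0253). Bcl2a1b, of a family of near-identical copies whose reads cannot be assigned with certainty, rose from 4.21 ± 2.80 to 19.6 ± 5.02 CPM (2.20 ± 0.53, edgeR adjusted p = 0.0259; means ± SD, n = 4, fold changes ± SE). The fourth called gene was Traf1, a signalling adaptor gene, which rose by 1.19 on the log2 scale. Mcl1, the survival gene that BCMA signalling maintains in plasma cells, chosen for mention after its values were seen, stood at 388 ± 69.9 CPM in control and 329 ± 31.6 CPM in knockout libraries (log2 fold change -0.24 ± 0.15, edgeR adjusted p = 0.448). These 4 calls were not stable when 1 library was left out, and the losses did not follow 1 library in particular. None was left without knockout replicate 1 or 2, and 1 was left when any of control replicates 2 and 3 and knockout replicates 3 and 4 was omitted, with edgeR adjusted p up to 0.0792 for Relb, 0.0978 for Bcl2 and 0.0816 for Bcl2a1b. The Bcl2a1b call was also lost with DESeq2 (adjusted p = 0.0614) and with no filter on low counts (edgeR adjusted p = 0.1195), and the Relb call with a replicate block (edgeR adjusted p = 0.0533). Without control replicates 1 and 4 all 4 were called. The fitted changes of Relb, Bcl2 and Bcl2a1b stayed positive under all 18 alternatives. Over all genes, calls fell from 568 to between 270 and 410 without control replicate 2 or 3 or any 1 knockout library.

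BCMA, TACI, BAFF receptor and CD138 can be shed from the cell by proteases. Of 12 listed protease genes 9 were tested and 0 were called by edgeR, against 5.74% of all genes. DESeq2 and limma-voom each called 1, against 855 and 1054 of all 9904 genes. At an unadjusted p under 0.05, where no share over all genes was taken, there were 2. Adam17, which encodes a membrane sheddase, came nearest at 148 ± 12.7 CPM (control) and 107 ± 3.98 CPM (knockout; SD, n = 4 each), with a log2 fold change of -0.47 ± 0.13 and an edgeR adjusted p of 0.0523. All 4 knockout libraries were below all 4 control libraries for it. Of the 18 alternatives 6 called it, among them those without control replicate 1 (edgeR adjusted p = 0.0252) and without control replicates 1 and 4 (0.0380). The other 12 did not, with edgeR adjusted p up to 0.157 without control replicate 3.

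CD138 belongs to the syndecans, and 2 other members of that family were also lower. In a list of 10 syndecan, glypican and adaptor genes 4 were tested and 2 fell, against 3.19% of all genes called lower. Sdc4 fell from 230 ± 21.6 to 137 ± 15.1 CPM (log2 fold change -0.75 ± 0.14, edgeR adjusted p = 0.00428). Sdc3 fell from 14.8 ± 4.27 to 5.78 ± 2.13 CPM (-1.35 ± 0.33, edgeR adjusted p = 0.0232), a call lost on leaving out control replicate 2 or 3, or knockout replicate 1, 2 or 3 (up to 0.0955). The genes that build the heparan sulfate chains of syndecans showed 0 calls by edgeR among 17 tested of 24, against 5.74% of all genes. DESeq2 and limma-voom also called 0. Their median log2 fold change was -0.32. At an unadjusted p under 0.05, where no share over all genes was taken, there was 1. The smallest p among them was that of Papss1, which makes the sulfate donor, with 0.64 ± 0.23 (SE, edgeR adjusted p = 0.130).

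Among the relatives of Slamf7, 1 of 7 tested SLAM family and adaptor genes was lower, against 3.19% of all genes. This was Slamf6, which fell from 12.4 ± 2.28 to 4.89 ± 0.344 CPM (log2 fold change -1.34 ± 0.27, edgeR adjusted p = 0.00763). In this list DESeq2 and limma-voom each called 1 lower and 0 higher. At an unadjusted p under 0.05, where no share over all genes was taken, 3 were lower and 0 higher. Among 15 tested tetraspanins and their partners, the family of Cd9, 1 was higher and 0 were lower by edgeR, against 2.54% and 3.19% of all genes. At an unadjusted p under 0.05, where no share over all genes was taken, 4 were higher and 6 lower. DESeq2 called 1 and 1, limma-voom 2 and 2, and edgeR without control replicates 1 and 4 also 1 and 1. The higher gene was Cd53, from 32.3 ± 9.83 to 61.9 ± 13.7 CPM (0.93 ± 0.23, edgeR adjusted p = 0.0270). The Cd53 groups overlapped, and the call did not survive leaving out control replicate 2 or 3, or knockout replicate 2, 3 or 4 (up to 0.121). Of 6 tested partners of CD28 and LAG3 0 were called by edgeR, DESeq2 or limma-voom, against 5.74% of all genes by edgeR. At an unadjusted p under 0.05, where no share over all genes was taken, there was 1. Grb2 came nearest (0.34 ± 0.14, edgeR adjusted p = 0.186). Of 6 tested genes of NAD and adenosine handling at the cell surface, the setting of CD38, 2 were lower, against 3.19% of all genes. Ada, adenosine deaminase, fell from 24.4 ± 5.24 to 11.5 ± 2.34 CPM (-1.08 ± 0.23, edgeR adjusted p = 0.0118). Entpd1, the ATP-degrading ectoenzyme CD39, fell from 16.0 ± 6.89 to 7.14 ± 1.14 CPM (-1.16 ± 0.31, edgeR adjusted p = 0.0419). The call of Ada was lost without knockout replicate 2 (0.0638), and that of Entpd1 without control replicate 2 or any 1 knockout library (up to 0.160). Without control replicates 1 and 4 the list had 3 lower genes. All means are ± SD with n = 4, and fold changes ± SE.

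Of 26 tested genes for other surface proteins of plasma cells 8 were lower and 1 was higher, against 3.19% and 2.54% of all genes, with a median log2 fold change of -0.48. DESeq2 called 9 lower and 2 higher, and limma-voom 10 and 2. At an unadjusted p under 0.05, where no share over all genes was taken, 12 were lower and 3 higher. Ly6d, a surface protein of the B lineage, fell from 1552 ± 318 to 552 ± 72.3 CPM (-1.49 ± 0.17, edgeR adjusted p = 7.3e-05), and Ccr9, a homing receptor for the gut, from 36.5 ± 6.52 to 5.10 ± 1.19 CPM (-2.84 ± 0.25, edgeR adjusted p = 9.56e-06). Slc3a2, which encodes the CD98 heavy chain of amino acid transporters, rose from 193 ± 64.8 to 681 ± 59.2 CPM (1.82 ± 0.22, edgeR adjusted p = 0.000135). The count of lower genes dropped to 3 on leaving out any of control replicate 3 or knockout replicates 1 and 2, was 5 without knockout replicate 4, and was 8 without control replicates 1 and 4. Of 9 plasma cell transcription factors 0 were called by edgeR, DESeq2 or limma-voom, against 5.74% of all genes by edgeR. So few genes cannot show a share below that. At an unadjusted p under 0.05, where no share over all genes was taken, there was 1. Their median log2 fold change was -0.26. The smallest p was that of Ikzf3, at -0.38 ± 0.16 (SE, edgeR adjusted p = 0.203). Of the 18 alternatives 1 called Ikzf3, that without control replicate 4 (edgeR adjusted p = 0.0369), and its adjusted p was up to 0.411 in the others.

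**Figure D4:**
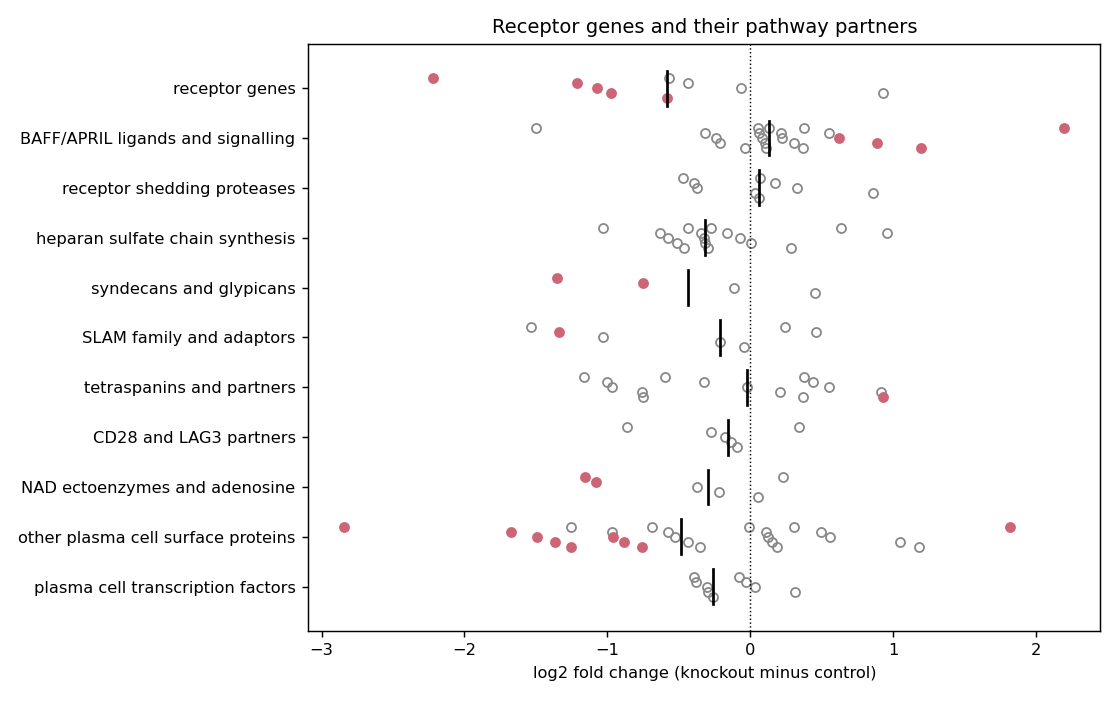
Fitted log2 fold change (knockout minus control, horizontal axis) of each tested gene in the receptor group and in 10 lists of related genes, with called genes as filled red points, others as open points, and a black line at each list's median. Red points lie left of 0 in the receptor group and among syndecans, right of 0 in BAFF/APRIL signalling, and, but for 1 point, left of 0 among other surface proteins.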

How the data were processed

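The deposited files give raw read counts by gene symbol, 1 library to a file and not normalized, as the whole numbers in them show. Libraries were made from 500 ng of RNA with a 3′ tag kit (QuantSeq FWD), per the labels' protocols. The submitters' processing notes name the build mm10 and the tools HTSeq 0.6.1, TopHat2 2.1.1, BWA 0.7.12 and SAMtools 1.3.1. What each tool did, which annotation was counted and with what strandedness was not given in the sources used here. Reads carry no stated molecular identifiers, so floors cover counting error only. No 2 libraries of the same group agreed within sampling noise (chi-square per degree of freedom 6.6 to 94.2).

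Genes passing filterByExpr (minimum count 10, minimum total 15) were tested with edgeR 4.0.16 in R 4.3.3: TMM factors, robust quasi-likelihood F-test, group as the only term, two-sided, Benjamini-Hochberg adjustment over 9904 genes, threshold 0.05. Log2 CPM used a prior count of 2. Standard errors are the log2 fold change over the square root of F. Ratios within libraries used a pseudocount of 0.5 and exact permutation tests (scipy 1.17.1). Alternatives included DESeq2 1.42.0 and limma 3.58.1. From each related list up to 3 called genes with the smallest p are named, or else the 1 with the smallest p. Caml and Jchain stand for symbols first listed as Camlg and Igj. The members and lists were chosen with earlier results of these data known. Other genes are named after their values were seen. Coordinates are from GENCODE M21.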

Additional observations from a re-analysis of the deposited data

Results flagged for a closer look

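In 4 of 63 sets of 4 libraries checked, 1 library lay further from the others than Dixon's criterion for 4 samples allows. For normally distributed values chance alone gives about 1 in 20. All 4 flagged sets rest on at most 7 counts, where that rate does not apply. Lag3 was at 0.983 CPM in control replicate 1 and at 0.161 CPM or less in the other control libraries. Jagn1 was at 0.269 CPM in knockout replicate 1, from 2 counts, against 1 count in each other knockout library. Tnfsf13b was at 0.322 CPM in control replicate 2, from 2 counts, and at 0.131 CPM in knockout replicate 3, from 1 count, with 0 in the other libraries of each group.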

How the results depend on the processing

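The count of called genes was 568, and 855 with DESeq2, 1054 with limma-voom and sample weights, 901 without control replicates 1 and 4, and 270 to 892 when 1 library was left out. The cause of these moves was not tested. Of the receptor genes 3 to 5 were called when 1 library was left out, all lower, and 5 under each other alternative except the replicate block, with 4. Over all genes no pairing by replicate number was seen. Deviations of same-numbered libraries correlated at -0.003 to 0.066, and those of different-numbered libraries at -0.117 to 0.069. Whether single genes pair by number was not tested. With the replicate block 509 genes were called, Tnfrsf13c was not (edgeR adjusted p = 0.0765), and Cd93, Slamf7, Sdc1 and Tnfrsf17 were. Depth limits Lag3, Cd9 and Tnfrsf17. No receptor gene reversed a call. The fitted value of Cd38 ranged from -0.25 to 0.10, without a call. The 3 receptor ratios stayed short of the threshold throughout, with adjusted exact permutation p from 0.0857 to 1, and most of those alternatives are too small to reach it. Counts in the related lists under the alternatives were added after seeing the data.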

Other observations

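Within both groups the BAFF and APRIL receptor genes differed between libraries along the same numbers, although the labels give those numbers no meaning. The log2 ratio of Tnfrsf17 to Tnfrsf13b was -2.50 and -3.17 in control replicates 1 and 2 and -1.15 and -1.54 in control replicates 3 and 4. In the knockout it was -5.65 and -4.85 in replicates 1 and 2 and -2.75 and -2.67 in replicates 3 and 4. This was noticed in the data and was not tested. Jchain, the gene for the chain that joins secreted IgM and a marker of antibody-secreting cells, fell from 5758 to 10015 CPM across control libraries to 3318 to 5473 CPM across knockout libraries (edgeR adjusted p = 0.0122).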
